A study of Danio rerio with 8 samples.

Results

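The genes described here are 8 zebrafish genes grouped as MARCKS, GAP43 and growth cone proteins: marcksa, marcksb, marcksl1a, marcksl1b, gap43, basp1, phyhipla and phyhiplb. They were taken by symbol from a table of 14781 genes, in which all 8 have a row. They were chosen by symbol with their fold changes between myrAKT and MYCN already known, so the values of this comparison selected them and are given as a description, with no test. RNA was sequenced from sorted tumour cells in 8 libraries. The myrAKT group holds 4 libraries of mCherry-positive ganglioneuroma cells from fish transgenic for a myristoylated AKT kinase, which the added lipid holds at the membrane. The MYCN group holds 4 libraries of EGFP-positive neuroblastoma cells from fish with a MYCN transgene. Both tumours arise in the sympathetic nervous system, and ganglioneuroma is the more differentiated kind. No sample was treated, and the labels give neither the promoters of the transgenes, the age of the fish nor the number of fish behind a sample. Transgene, tumour type and sorting colour go together in every sample, and their parts in a difference cannot be told apart.

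A growth cone is the moving tip of a growing neurite. MARCKS, the MARCKS-like proteins, GAP43 and BASP1 sit on the inner face of its membrane, held there by a fatty acid and, in part, by stretches of basic residues. There they bind the lipid PIP2 and are tied to the actin filaments beneath. Calmodulin and phosphorylation by protein kinase C loosen the MARCKS proteins from the membrane and release PIP2, and GAP43 is likewise a calmodulin-binding target of protein kinase C. GAP43 and BASP1 are abundant in growing and regenerating neurons. MARCKS proteins occur in many other cells, and in mammals the MARCKS-like protein is prominent in macrophages. The phyhipl genes are named for similarity to a brain protein that binds phytanoyl-CoA hydroxylase, and no role of theirs in growth cones is taken as given here.

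Counts summed to between 25948623 and 43083220 per myrAKT library and between 36984845 and 55827123 per MYCN library. Levels are in CPM, counts brought to a common library size with TMM factors, and they are not corrected for gene length, so levels of different genes are not compared. The second principal component, with 4.94% of the variance of log2 CPM, set MYCN 4 apart from the other 7 libraries, and fold changes without it are given beside the full ones. Of 12126 genes tested, 76.0% passed the edgeR quasi-likelihood test between the groups at an adjusted p of 0.05, with 37.6% higher and 38.4% lower in myrAKT (4565 and 4655 genes). With library totals in place of TMM 5507 were higher (45.4%) and 3348 lower (27.6%). Libraries were also scaled by the summed counts of dbh plus th, catecholamine enzymes taken here as markers of the tumour cells. With that scaling 8319 were higher (68.6%) and 1026 lower (8.46%).

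Of the 8 genes, 7 passed the filter on low counts, and gap43 did not. Of those 7, 6 were lower and 1 was higher in the myrAKT libraries than in the MYCN libraries. For these 7 genes the libraries of one group did not overlap those of the other, which held for 72.5% of all tested genes, 36.3% with myrAKT below and 36.2% with myrAKT above. Nothing is read from these counts, since the genes were named with the comparison in view. Their median log2 fold change, myrAKT minus MYCN, was -2.91, and that of all tested genes was -0.04. In bulk libraries fewer cells of a type and less RNA per cell cannot be told apart.

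**Figure D1:**
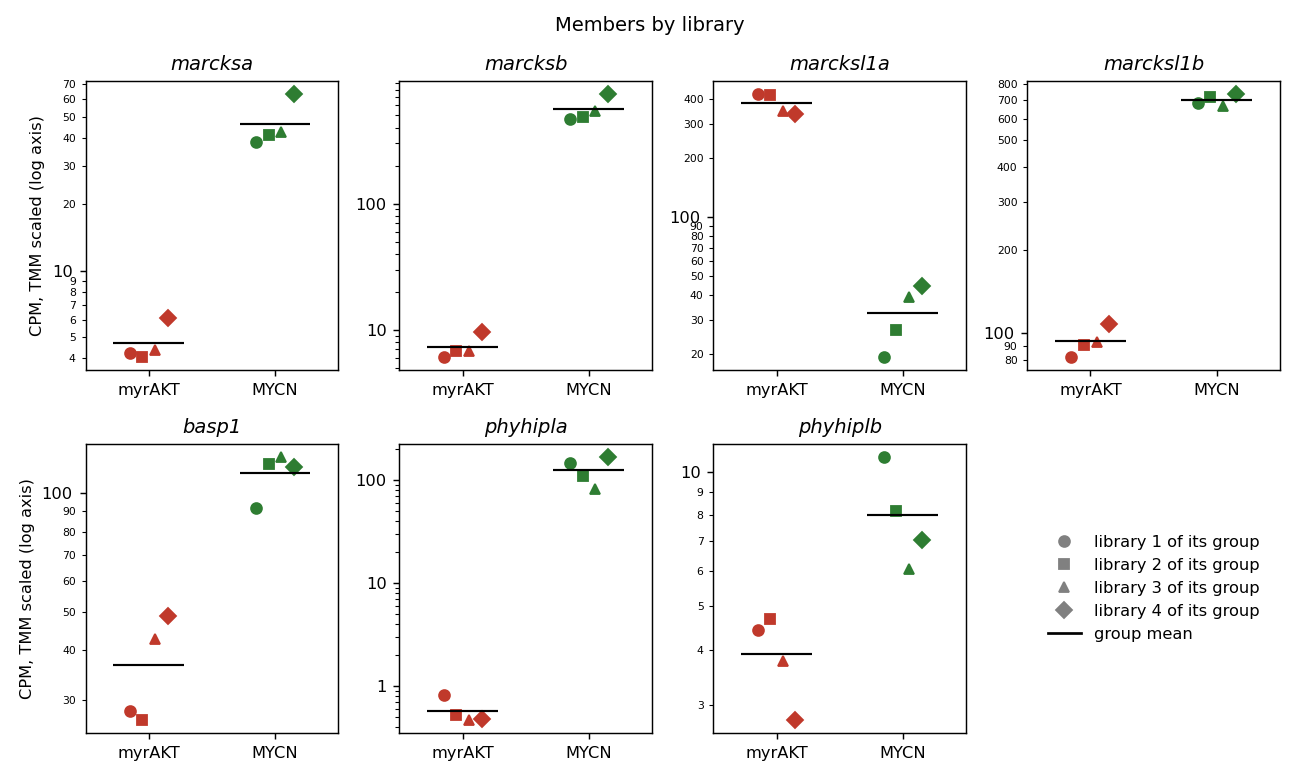
CPM of the 7 genes that passed the filter, on log axes, in the 4 myrAKT libraries (left in each panel) and the 4 MYCN libraries (right); each point is a library and each line a group mean. The panel of marcksl1a has the myrAKT points above the MYCN points, at 338 to 425 CPM against 19.4 to 44.8 CPM.

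The MARCKS copies were both lower in myrAKT, by unequal amounts. Marcksb, a zebrafish copy of the protein kinase C substrate MARCKS, had 6.08, 6.74, 6.80 and 9.60 CPM in myrAKT libraries 1 to 4, against 465, 488, 542 and 735 CPM in MYCN libraries 1 to 4. Its myrAKT libraries all lay under 10 CPM, and its highest library in either group was number 4. The log2 fold change was -6.26 ± 0.24 (SE), or 76.6-fold, and -6.11 without MYCN 4. Among the tested genes 46 had a lower fold change, a rank that describes a gene chosen with its value known. Marcksa, the other copy, had 4.22, 4.06, 4.36 and 6.08 CPM in myrAKT libraries, against 38.4, 41.4, 42.7 and 63.2 CPM in MYCN libraries. It was 9.97-fold lower, with a log2 fold change of -3.32 ± 0.22 and of -3.14 without MYCN 4. As for marcksb, library 4 was the highest in each group, and the groups were far apart.

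Within each library the count of marcksa can be set against that of marcksb, which removes the scaling of the library. The log2 ratio of marcksa to marcksb was -0.52, -0.73, -0.64 and -0.66 in the myrAKT libraries, against -3.60, -3.56, -3.67 and -3.54 in the MYCN libraries. The ratio thus varied little within a group, with SDs of 0.09 in myrAKT and 0.06 in MYCN (n = 4 each), and it was 2.95 higher in myrAKT on the log2 scale. Marcksb was the copy that differed more. Among all 1137 pairs of tested symbols that differ only in a final a or b, a background chosen after the data were seen, 21.8% had a larger difference between their fold changes.

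The MARCKS-like copies went opposite ways. Marcksl1a had 425, 420, 347 and 338 CPM in the myrAKT libraries, against 19.4, 26.8, 39.2 and 44.8 CPM in the MYCN libraries. It was the only one of the 7 genes that was higher in myrAKT, 11.8-fold, with a log2 fold change of 3.56 ± 0.26, which was 3.74 without MYCN 4. Its fold change was exceeded by 1234 of the tested genes. Marcksl1b had 82.0, 90.5, 92.8 and 108 CPM in the myrAKT libraries, against 681, 716, 669 and 736 CPM in the MYCN libraries. It was 7.50-fold lower in myrAKT, with a log2 fold change of -2.91 ± 0.13 and of -2.89 without MYCN 4. Of the 7 genes the MYCN libraries were closest to each other in marcksl1b, with a coefficient of variation of 4.41%, and least in marcksl1a, with 35.5%.

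The log2 ratio of marcksl1a to marcksl1b was 2.38, 2.21, 1.90 and 1.64 in the myrAKT libraries, against -5.13, -4.74, -4.09 and -4.04 in the MYCN libraries. The sign of this ratio of read counts differed between the groups in every library. That sign depends on the lengths of the genes, and only the shift between the groups is free of them. Of the counts of both rows together, marcksl1a took 80.2 ± 3.60% (SD, n = 4) in myrAKT and 4.41 ± 1.46% in MYCN. The shift of the log2 ratio was 6.54, a 92.8-fold change, and 2.81% of the 1137 pairs had a larger difference of fold changes. In 20.3% of these pairs both genes passed the edgeR test in opposite directions, and in 12.0% when libraries were scaled by dbh plus th. The RefSeq gene table of assembly GRCz12tu lists each of the symbols marcksl1a and marcksl1b as an older name of the other gene. The rows are named here as deposited, and which gene copy each one counts is not settled by the sources used here.

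Summed over the 4 MARCKS and MARCKS-like rows, the level was 488 ± 36.4 CPM on average for myrAKT and 1337 ± 166 CPM for MYCN (SD, n = 4 each). The libraries ran from 451 to 521 CPM in myrAKT and from 1204 to 1579 CPM in MYCN and did not overlap. That separation ended when the sum was set against dbh plus th, a ratio chosen after the data were seen. Per 1000 CPM of dbh plus th the sum was at 350.0, 254, 170.1 and 144 CPM in the myrAKT libraries, against 193, 209, 233 and 238 CPM in the MYCN libraries. The sum joins rows that went opposite ways. Set against the summed sympathoadrenal markers, given below, marcksl1a stayed higher in myrAKT, and marcksa, marcksb and marcksl1b stayed lower, without overlap. Within myrAKT dbh ran from 784 to 1659 CPM and th from 695 to 1554 CPM. The composition of the family sum also differed. Marcksl1a made up 78.2 ± 4.00% of the family's counts in myrAKT and 2.39 ± 0.658% in MYCN, whereas marcksb made up 1.51 ± 0.3997% in myrAKT and 41.4 ± 3.81% in MYCN. Marcksl1b took 19.3 ± 3.38% in myrAKT and 52.8 ± 4.68% in MYCN, and marcksa 0.969 ± 0.245% in myrAKT and 3.44 ± 0.382% in MYCN. These are shares of read counts and not of molecules, since the rows differ in length.

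**Figure D2:**
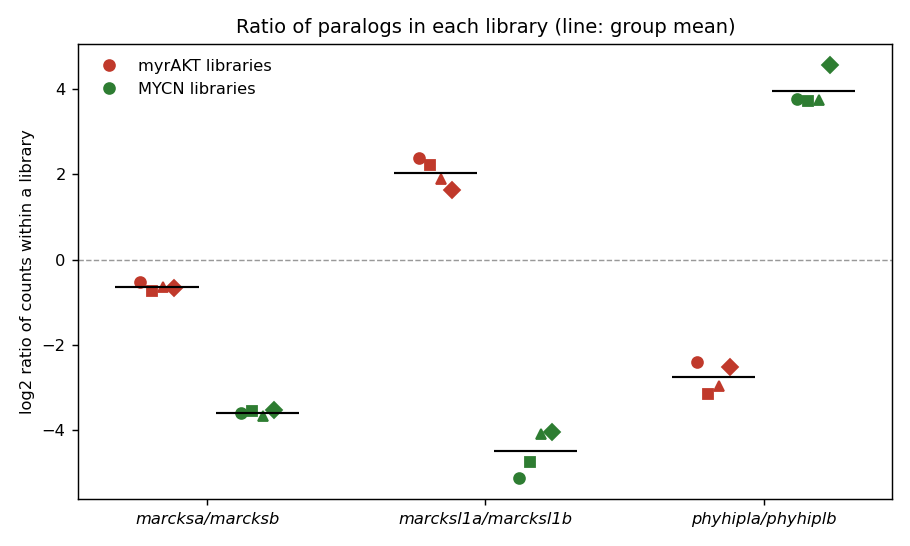
Log2 ratio of the counts of paralogs within each library, with myrAKT libraries to the left of MYCN libraries for each pair and a line at each group mean. The marcksl1a/marcksl1b ratio averages 2.03 in myrAKT and -4.50 in MYCN, the phyhipla/phyhiplb ratio -2.76 in myrAKT and 3.96 in MYCN, and the marcksa/marcksb ratio is below 0 in all 8 libraries. The ratios are not corrected for gene length, so their place against 0 is not read as a difference in level.

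Gap43, the neuronal growth cone phosphoprotein, is listed at 0 in all 8 libraries. The row is among 732 that are at 0 in every library. These include cdc37, surf4, cops6 and dut, genes of general cell function that were picked out after the table was seen. A listed 0 is therefore not read here as a level of gap43 in these tumours, and no fold change was formed.

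Basp1 encodes a myristoylated protein of growth cones that resembles GAP43 and MARCKS in its lipid binding. It had 28.1, 26.7, 42.8 and 49.0 CPM in the myrAKT libraries, against 91.8, 119, 124 and 117 CPM in the MYCN libraries. The groups did not overlap, and in myrAKT the libraries fell into a lower and a higher pair. Basp1 was 3.08-fold lower in myrAKT, with a log2 fold change of -1.62 ± 0.21, both with and without MYCN 4. With libraries scaled by dbh plus th, its log2 fold change was -0.23 ± 0.32.

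Phyhipla had the lowest fold change of the 7 genes. It had 0.821, 0.520, 0.472 and 0.475 CPM in the myrAKT libraries, against 148, 108, 82.0 and 168 CPM in the MYCN libraries. The myrAKT values rest on 35, 25, 21 and 15 reads, and the exact 95% Poisson interval, which covers counting error only, runs from 0.572 to 1.14 CPM in myrAKT 1 and from 0.266 to 0.784 CPM in myrAKT 4. The log2 fold change was -7.77 ± 0.33, 219-fold, and -7.62 without MYCN 4. Among the tested genes 15 had a lower fold change, and this rank too is only a description. Phyhiplb, its paralog, had 4.44, 4.68, 3.77 and 2.79 CPM in the myrAKT libraries, against 10.8, 8.18, 6.06 and 7.03 CPM in the MYCN libraries. Its groups came closest, with myrAKT 2 next to MYCN 3. Its log2 fold change was -1.02 ± 0.24, a 2.03-fold lower level in myrAKT, and -1.09 without MYCN 4, and it turned to 0.50 ± 0.34 with libraries scaled by dbh plus th.

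The log2 ratio of phyhipla to phyhiplb was -2.42, -3.14, -2.97 and -2.51 in the myrAKT libraries, against 3.77, 3.73, 3.76 and 4.58 in the MYCN libraries. As in the marcksl1 pair the sign of the ratio of read counts, which depends on gene length, differed between the groups in every library. Here, however, both copies had the lower level in myrAKT with TMM factors. The shift was -6.72 on the log2 scale, 105-fold. Of the 1137 pairs of a and b symbols, 2.55% had a larger difference.

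The scaling of the libraries moves all fold changes together. Over all tested genes the log2 fold changes had a median of 0.34 when libraries were scaled by their totals and of 1.45 when they were scaled by dbh plus th. Under that scaling marcksa was at -1.87, marcksb at -4.82, marcksl1b at -1.45 and phyhipla at -6.30 on the log2 scale, and marcksl1a was at 5.09. Phyhiplb alone changed sign. With library totals none of the 7 did, and phyhiplb was then at -0.64.

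**Figure D3:**
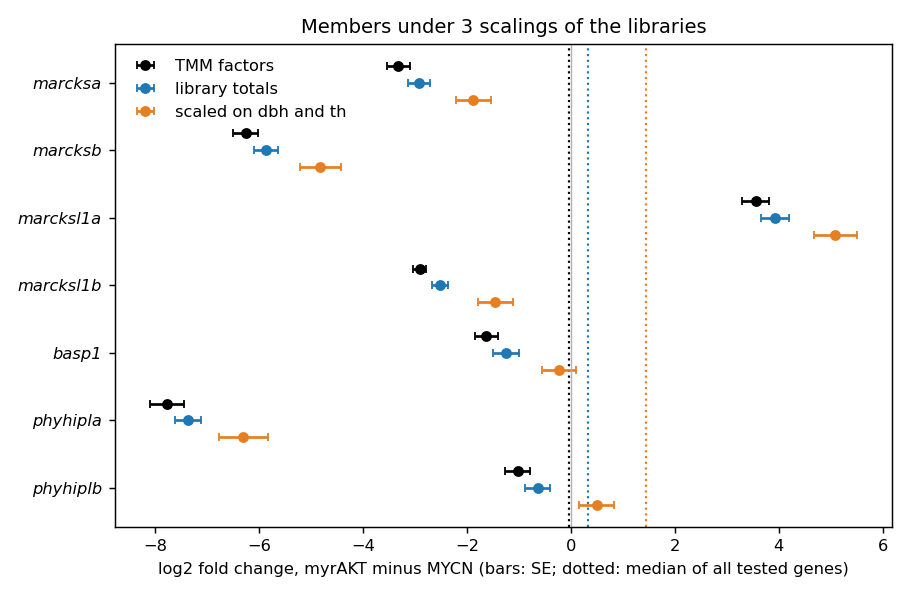
Log2 fold changes, myrAKT minus MYCN, of the 7 genes with TMM factors, with library totals and with libraries scaled by dbh plus th; bars are standard errors and dotted lines the median of all tested genes under each scaling. Marcksl1a lies right of 0 under all 3 scalings, and phyhiplb crosses from -1.02 to 0.50 when scaled by dbh plus th.

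Genes taken as markers of the tumour cells and of other cells differed between the groups as well. Of 13 sympathoadrenal genes 11 fell and none rose in myrAKT (median log2 fold change -1.69), and their summed level was 2146 to 4708 CPM in myrAKT and 9676 to 11568 CPM in MYCN. Dbh itself came to 1248 ± 377 CPM on average for myrAKT and 3349 ± 304 CPM for MYCN, and th 1101 ± 374 CPM on average for myrAKT and 2771 ± 545 CPM for MYCN (SD, n = 4). Of 11 neuronal genes tested 10 fell and 1 rose (median -3.10), at a summed 112 to 252 CPM in myrAKT and 830 to 1107 CPM in MYCN, led by elavl4 and snap25a. Elavl3, the RNA-binding protein of neurons, was at 2.56 ± 0.865 CPM on average for myrAKT and 115 ± 27.1 CPM for MYCN. None of these neuronal and sympathoadrenal markers was at 0 throughout either group. Scaled by dbh plus th, which are themselves on the sympathoadrenal list, 1 sympathoadrenal gene rose and 5 fell. On that scaling 1 neuronal gene rose and 7 fell, where 68.6% of all tested genes rose and 8.46% fell. Counts of marker genes with TMM factors, here and below, stand beside 37.6% higher and 38.4% lower among all tested genes. With library totals those shares were 45.4% and 27.6%.

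All 9 leukocyte genes rose (median 4.77), as did all 10 tested erythroid (median 6.11), all 9 endothelial (median 4.84) and all 7 kidney tubule genes (median 7.10), with TMM factors, with library totals and when scaled by dbh plus th. Summed leukocyte markers, most abundantly cd74a and lyz, were at 16807 to 21192 CPM in myrAKT and 425 to 1348 CPM in MYCN. Erythroid markers summed to 4410 to 10896 CPM in myrAKT and 38.1 to 160 CPM in MYCN, endothelial ones to 375 to 559 CPM in myrAKT and 11.2 to 22.1 CPM in MYCN, and kidney tubule ones to 1123 to 4135 CPM in myrAKT and 7.56 to 23.8 CPM in MYCN. Of 10 stromal genes 8 rose and none fell (median 3.62), at 483 to 649 CPM in myrAKT and 23.8 to 58.8 CPM in MYCN. Of 7 glial genes tested 5 rose and 1 fell (median 2.20), at 83.1 to 95.4 CPM in myrAKT and 25.7 to 41.3 CPM in MYCN. Mbpb made up most of that glial sum, at 78.8 CPM on average for myrAKT and 27.7 CPM for MYCN. Sox10 came next, at 2.59 and 0.304 CPM. The most abundant erythroid rows were hbaa1 and zgc:92880, and the endothelial ones stab1 and fli1a. For kidney tubule they were atp1a1a.4 and cdh17, and for stroma cxcl12a and fn1b. The globin row ba1 and pdgfrb, of pericytes, are listed at 0 in all libraries, which, as for gap43, is not read here as a level. Erbb3b, of glia, was at 0 in all MYCN libraries.

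Marcksl1a and the leukocyte markers were both higher in myrAKT, by unequal amounts. The level of marcksl1a per 1000 CPM of summed leukocyte markers, a ratio chosen after the data were seen, was 20.1, 19.9, 19.7 and 20.1 CPM in the myrAKT libraries, against 45.7, 43.4, 51.0 and 33.2 CPM in the MYCN libraries. The ratio was nearly the same in the 4 myrAKT libraries and lower there than in every MYCN library, so the groups were apart on this scale too. In each group the order of the libraries by marcksl1a was also their order by the summed markers. In myrAKT that order did not hold for either of the most abundant markers alone, with cd74a at 7176, 7900, 5694 and 5274 CPM and lyz at 4651, 3824, 4307 and 4347 CPM. Summed neuronal markers ran in exactly the reverse order in both groups. They were at 112, 146, 200 and 252 CPM in the myrAKT libraries, against 1107, 1003, 901 and 830 CPM in the MYCN libraries. Within myrAKT the summed sympathoadrenal markers also ran in the reverse order. With 4 libraries a group no correlation was computed, and the part of leukocytes in the level of marcksl1a was not tested. Erythroid, endothelial, kidney tubule, stromal and glial markers, also higher in myrAKT for the most part, were not set against marcksl1a.

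The 7 genes were also set against the summed sympathoadrenal markers, again after the data were seen. Dbh and th are the most abundant genes of that sum, so this scale is not separate from the scaling by dbh plus th. On it the groups overlapped for basp1 and phyhiplb and not for the other 5. Per 1000 CPM of the summed markers basp1 was at 13.1, 8.98, 11.0 and 10.4 CPM in the myrAKT libraries, against 7.94, 11.3, 12.8 and 10.4 CPM in the MYCN libraries. Phyhiplb was at 2.07, 1.58, 0.966 and 0.592 CPM in the myrAKT libraries, against 0.933, 0.775, 0.626 and 0.624 CPM in the MYCN libraries, so that 3 of its myrAKT libraries lay above the highest MYCN library. Marcksb was at 1.74 to 2.83 CPM in myrAKT against 40.2 to 65.2 CPM in MYCN. Marcksl1b was at 23.0 to 38.2 CPM in myrAKT against 58.9 to 69.2 CPM in MYCN, and marcksa at 1.12 to 1.97 CPM in myrAKT against 3.32 to 5.61 CPM in MYCN. Phyhipla was at 0.101 to 0.383 CPM in myrAKT against 8.48 to 14.9 CPM in MYCN. Marcksl1a, the only one above, was at 71.8 to 198 CPM in myrAKT against 1.68 to 4.05 CPM in MYCN.

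**Figure D4:**
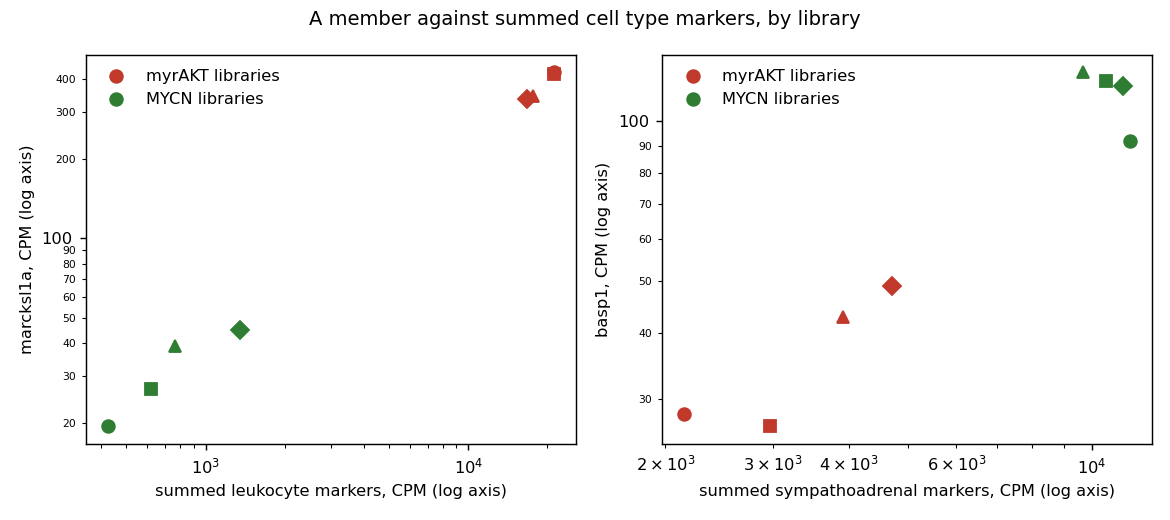
Level of marcksl1a against summed leukocyte markers (left) and of basp1 against summed sympathoadrenal markers (right), in CPM on log axes, each point a library. The 4 myrAKT libraries lie at 16807 to 21192 CPM of leukocyte markers, and the 4 MYCN libraries at 9676 to 11568 CPM of sympathoadrenal markers.

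The genes around these proteins were followed in 6 lists with 132 genes tested, none of them one of the 8. With TMM factors 47 rose, 55 fell and 30 did not pass the edgeR test, which is 77.3% called against 76.0% of all tested genes. Their median log2 fold change was -0.24, against -0.04 for all tested genes. With libraries scaled by dbh plus th 81 rose and 22 fell. That scaling raises the fold changes of all genes together, and counts under it are to be set against the 68.6% higher and 8.46% lower of all tested genes, those with TMM factors against 37.6% and 38.4%. The lists were chosen with earlier results of these data known, and the genes named from them have the smallest adjusted p in each direction. Their p-values describe genes selected in that way. Errors of mean CPM below are SDs over 4 libraries.

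Genes of the growth cone's microtubules, the stathmins, collapsin response mediator proteins and doublecortin-like kinases, were the list with no gene higher. Of 14 tested, 9 fell and 5 did not pass, with a median log2 fold change of -1.94. Scaled by dbh plus th, 5 rose and 7 fell. Dpysl3, a collapsin response mediator protein that binds tubulin, was at 13.3 ± 4.73 CPM on average for myrAKT and 587 ± 139 CPM for MYCN (-5.47 ± 0.32 as a log2 fold change with its SE; edgeR adjusted p = 4.0e-07). Dclk1b, a doublecortin-like kinase, was at 0.451 ± 0.0890 CPM on average for myrAKT and 21.2 ± 3.92 CPM for MYCN (-5.55 ± 0.24 as a log2 fold change with its SE; edgeR adjusted p = 1.0e-07). Its copy dclk1a, at 10.6 ± 3.02 CPM on average for myrAKT and 13.4 ± 4.08 CPM for MYCN, did not pass (log2 fold change -0.34). Stmn4l, a stathmin, fell by 2.93 on the log2 scale. No row was found for map1b, map2, mapta, maptb, dcx, stmn3 or dpysl2a of this list. Most sympathoadrenal and neuronal markers given above fell in the same libraries, with median log2 fold changes of -1.69 and -3.10. The part of these cells was not tested.

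Protein kinase C isoforms and enzymes of phosphoinositides, which act on MARCKS proteins and on their lipid, were listed together with calcineurin subunits. This list went mostly the other way. Of 27 genes 19 rose and 8 fell, with a median log2 fold change of 1.32. These counts stand beside 37.6% higher and 38.4% lower among all tested genes. Under the scaling by dbh plus th 22 rose and 2 fell, where 68.6% of all genes rose and 8.46% fell, and the median was 2.85. Prkcba, a beta isoform of protein kinase C, was at 95.1 ± 16.0 CPM on average for myrAKT and 1.77 ± 0.363 CPM for MYCN (5.74 ± 0.21 as a log2 fold change with its SE; edgeR adjusted p = 5.3e-08). Prkcda, a delta isoform, was at 219 ± 17.6 CPM on average for myrAKT and 6.94 ± 1.00 CPM for MYCN (4.98 ± 0.15 as a log2 fold change with its SE; edgeR adjusted p = 2.9e-08). Plcg2, a phospholipase C that cleaves PIP2 and is prominent in blood cells, was at 360 ± 47.0 CPM on average for myrAKT and 59.2 ± 5.74 CPM for MYCN. Ppp3cb, a catalytic subunit of calcineurin, fell by 3.34 on the log2 scale. The other catalytic subunits were at -2.35 (ppp3ca), -0.37 (ppp3cca) and 1.32 (ppp3ccb). The leukocyte markers given above rose in the same libraries, as did erythroid, endothelial, kidney tubule and most stromal markers. The part of these cells in the differences was not tested.

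Regulators of actin and filopodia were split, with 13 higher, 9 lower and 6 not past the test among 28 (median log2 fold change 0.36). Scaled by dbh plus th, 19 rose and 6 fell. Vaspa, which extends actin filaments at the leading edge, was at 171 ± 12.4 CPM on average for myrAKT and 4.45 ± 1.65 CPM for MYCN (5.25 ± 0.26 as a log2 fold change with its SE; edgeR adjusted p = 2.0e-07). Cfl1l, a cofilin that cuts actin filaments, rose by 4.33 on the log2 scale. The row si:dkey-152p16.6, which RefSeq pairs with the thymosin beta gene tmsb1, rose by 4.48. Fscn1a, the fascin that bundles actin in filopodia, was at 81.1 ± 6.23 CPM on average for myrAKT and 537 ± 49.3 CPM for MYCN (-2.73 ± 0.12 as a log2 fold change with its SE; edgeR adjusted p = 1.2e-07). Leukocyte markers rose in the same libraries as vaspa and cfl1l, as did erythroid, endothelial, kidney tubule and most stromal markers. The part of these cells was not tested.

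Of 25 membrane and adhesion proteins of growth cones 7 rose, 12 fell and 6 did not pass, with a median log2 fold change of -0.73. Scaled by dbh plus th, 11 rose and 5 fell, where 68.6% of all tested genes rose and 8.46% fell. Gpm6ba, a proteolipid-like membrane glycoprotein, was at 2.48 ± 1.45 CPM on average for myrAKT and 114 ± 24.8 CPM for MYCN (-5.56 ± 0.37 as a log2 fold change with its SE; edgeR adjusted p = 8.8e-07). Its copy gpm6bb, with a log2 fold change of -0.64, did not pass. Nadl1.1, the L1 adhesion molecule that RefSeq now names l1camb, fell by 3.90 on the log2 scale. Tmem35 fell by 2.83, and no role of it in growth cones is taken as given here. Chl1a, a close relative of L1, was at 22.0 ± 4.51 CPM on average for myrAKT and 2.88 ± 1.12 CPM for MYCN and rose by 2.94 on the log2 scale. Glial markers, most of which rose in the same libraries, are given above beside leukocyte, erythroid, endothelial, kidney tubule and stromal ones. The part of these cells was not tested.

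Among calmodulins, calmodulin kinases and small calmodulin-binding proteins 3 of 15 rose, 6 fell and 6 did not pass (median log2 fold change -0.51). With library totals 5 rose and 2 fell, where 45.4% of all tested genes rose and 27.6% fell. Scaled by dbh plus th, 11 rose and 1 fell, where 68.6% of all genes rose and 8.46% fell. Calm2a, a calmodulin gene, was at 91.1 ± 4.58 CPM on average for myrAKT and 305 ± 91.4 CPM for MYCN (-1.75 ± 0.19 as a log2 fold change with its SE; edgeR adjusted p = 2.3e-05). Its call ended when libraries were scaled by dbh plus th (log2 fold change -0.25, edgeR adjusted p = 0.496). Pcp4a, a small protein that binds calmodulin through an IQ motif, fell by 3.24 on the log2 scale. It had 8, 14, 79 and 18 reads in the myrAKT libraries, against 279, 202, 215 and 374 reads in the MYCN libraries, and its log2 fold change was -4.33 without myrAKT 3. Camk2d1, a calmodulin kinase, rose by 1.26. Calm1a, at -0.77, did not pass with library totals (edgeR adjusted p = 0.075) and was at 0.66 when scaled by dbh plus th. The other calmodulin genes did not all fall with TMM factors. Calm1b rose by 0.69 on the log2 scale, from 157 CPM on average for MYCN to 254 CPM for myrAKT. Calm2b, at 0.25, did not pass, and calm3a and calm3b were at -0.57 and -0.59.

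Enzymes that attach or remove the fatty acid anchors were lower in 11 and higher in 5 of 23 cases, with a median log2 fold change of -0.09. That median was 0.28 with library totals, and scaled by dbh plus th 13 rose and 1 fell, against 68.6% and 8.46% of all genes. Metap1, which removes the first methionine before myristoylation, was at 105 ± 6.06 CPM on average for myrAKT and 450 ± 40.2 CPM for MYCN (-2.09 ± 0.12 as a log2 fold change with its SE; edgeR adjusted p = 3.0e-07). Zdhhc2, a palmitoyl transferase, fell by 3.87 on the log2 scale, and abhd17c, a depalmitoylating enzyme, by 1.58. The calls of metap1 and abhd17c ended with the scaling by dbh plus th (edgeR adjusted p = 0.11 for metap1 and 0.783 for abhd17c). Nmt1b, an N-myristoyltransferase, was at 44.0 ± 24.7 CPM on average for myrAKT and 0.629 ± 0.264 CPM for MYCN (6.13 ± 0.52 as a log2 fold change with its SE; edgeR adjusted p = 4.1e-06). Its myrAKT libraries differed widely, at 48.8, 76.5, 29.6 and 20.8 CPM, against 0.801, 0.687, 0.788 and 0.240 CPM in the MYCN libraries. The other copy, nmt1a, went the other way, at 99.2 CPM on average for myrAKT and 183 CPM for MYCN. Leukocyte, erythroid, endothelial, kidney tubule and most stromal markers rose in the same libraries as nmt1b. The part of these cells was not tested.

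**Figure D5:**
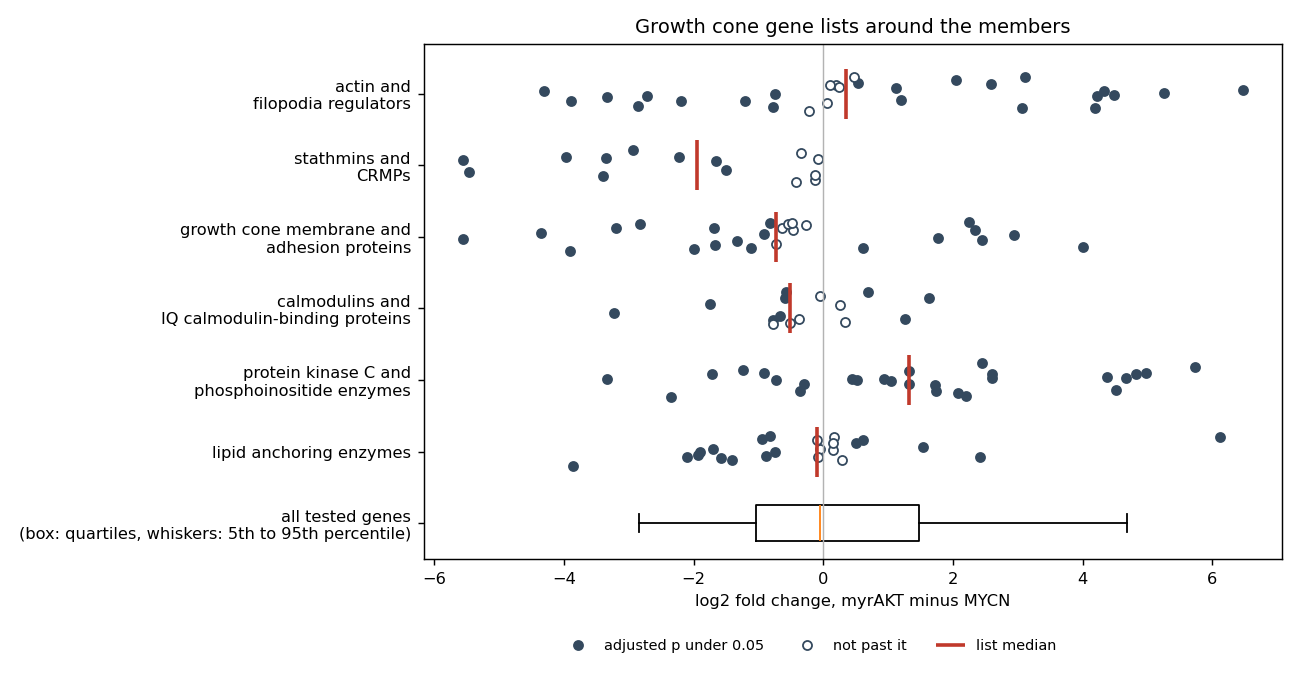
Log2 fold changes, myrAKT minus MYCN, of the tested genes in each of the 6 lists around the 8 genes; filled points passed the edgeR test at an adjusted p of 0.05, open points did not, and red bars are list medians. The stathmin and CRMP list has no filled point right of 0 with TMM factors, whereas 5 of its genes rose when libraries were scaled by dbh plus th; the kinase C list has 19 filled points right of 0.

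The genes most like each member were found by the root mean square difference of log2 CPM over the 8 libraries. Each gene was centred on its own mean beforehand. The search covered 7227 genes with a mean log2 CPM of at least 3, from which clone and locus names were left out. The pattern used for this also dropped symbols starting with cb, im or sb. With differences this size between the groups the measure follows the fold change first, and it says nothing of control or function. Marcksl1a lay closest to dicp1.1, an immunoglobulin-domain gene, at 0.121 and to acvrl1, a receptor of endothelium, at 0.129. Basp1 lay closest to ndrg3a at 0.109 and slc29a1a, a nucleoside transporter, at 0.165. Marcksl1b lay at 0.129 from both pdcd2l and sestd1, and marcksa at 0.161 from rpz2 and 0.203 from acbd7. Phyhiplb lay at 0.169 from hp1bp3, a chromatin protein, and at 0.173 from aars, the alanyl-tRNA synthetase. Marcksb and phyhipla shared their nearest genes, pmela, a structural protein of pigment granules, and hhip, which binds hedgehog ligands. Marcksb was at 0.351 from pmela and 0.434 from hhip, and phyhipla at 0.753 from pmela and 1.04 from hhip. Pmela was at 2.51 ± 0.298 CPM on average for myrAKT and 223 ± 20.9 CPM for MYCN. Among the 7 genes themselves marcksa and marcksl1b were the closest, at 0.272, and marcksl1a and phyhipla the farthest apart, at 5.70.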

How the data were processed

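Raw read counts, 1 row per gene symbol and 1 column per library, are what the authors deposited, and all columns matched a sample by title. The submitters' processing notes list edgeR, HTSeq 0.6.1, SAMtools 1.5, TopHat2 2.1.1, Trim Galore 0.4.4, FastQC 0.11.5 and the build GRCz10, in no order. The sources used here give no annotation, strand setting or rule for reads shared between copies, so counts of near-identical copies are uncertain. Per the labels' protocols ribosomal RNA was depleted, while the molecule is labelled polyA RNA.

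The count test was that of edgeR 4.0.16 (R 4.3.3), with filterByExpr by group, TMM factors, glmQLFit (robust) and glmQLFTest, two-sided, with Benjamini-Hochberg adjustment over 12126 genes and a threshold of 0.05. Log2 fold changes are myrAKT minus MYCN, and each SE is the fold change divided by the root of F. Paralog ratios add 0.5 count to each gene. Alternatives were DESeq2 1.42.0, RLE and upper-quartile factors, library totals, scaling by dbh plus th (the summed counts of both genes), both other filters, a replicate block and leaving out each library. Libraries within a group differed beyond counting noise (chi-square per degree of freedom at least 21.2), and each was counted as a sample. The labels do not say that samples came from separate fish, so the spread behind a p-value may be technical.

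The 8 genes, the 6 lists around them and the 8 marker lists were chosen with earlier results of these data known. Among 288 symbols, 218 matched a row directly and 9 through another symbol of the same gene in RefSeq. Genes named are the 8, per list up to 3 with the smallest adjusted p in the commoner direction and 1 in the other, per marker list the most abundant pair with dbh, th and elavl3, and the pair most like each of the 8. Paralog pairs of the lists and the 4 rows at 0 beside gap43 were picked after their values were seen.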

Additional observations from a re-analysis of the deposited data

Results flagged for a closer look

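In 7 of 100 sets of 4 libraries checked, 1 library stood apart from the other 3 by Dixon's criterion (the gap to the nearest library, as a share of the range). Chance alone flags about 1 in 20 such sets. Marcksa in myrAKT was flagged for myrAKT 4, at 6.08 CPM against 4.06 to 4.36 CPM in the others, a gap of 0.853 of the range. Phyhipla in myrAKT was flagged for myrAKT 1, at 0.821 CPM against 0.472 to 0.520 CPM (0.861), on 35 reads against 15 to 25. The log2 ratio of phyhipla to phyhiplb in MYCN was flagged for MYCN 4, at 4.58 against 3.73 to 3.77 (0.944).

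Around these genes, vaspa was at 189 CPM in myrAKT 1 and 164 to 165 CPM in the other myrAKT libraries (0.963), and gpm6ba at 4.62 CPM in myrAKT 4 and 1.57 to 2.08 CPM in the others (0.833). Dpysl3 was at 380 CPM in MYCN 4 and 644 to 671 CPM in the other MYCN libraries (0.908), and mbpb, a myelin gene among the glial markers, at 36.8 CPM in MYCN 3 and 24.0 to 25.1 CPM in the others (0.916).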

How the results depend on the processing

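The direction of 6 of the 7 genes was the same under all 16 other fits; phyhiplb was reversed, at 0.50, with libraries scaled by dbh plus th. That scaling moved marcksa to -1.87, marcksb to -4.82, marcksl1a to 5.09, marcksl1b to -1.45, basp1 to -0.23 and phyhipla to -6.30, and called 8319 genes higher and 1026 lower, against 4565 and 4655 with TMM. It moved the lists to 81 higher and 22 lower in all, with stathmins and CRMPs at 5 higher, membrane proteins at 11 higher and 5 lower, calmodulins at 11 and 1, lipid anchoring at 13 and 1, and the kinase C list at 2 lower; calm1a was at 0.66. With library totals marcksa was at -2.92, marcksb at -5.86, marcksl1b at -2.52, basp1 at -1.24 and phyhiplb at -0.64, calmodulins had 5 higher and 2 lower and the kinase C list 5 lower. With CPM of at least 1 in 4 libraries, which left 21 membrane genes tested, 4 of them were higher against 7. The cause of the changes with scaling was not tested. Leaving out 1 library kept log2 fold changes within -6.41 to -6.11 for marcksb, -3.46 to -3.14 for marcksa, 3.36 to 3.74 for marcksl1a, -1.79 to -1.50 for basp1 and -1.12 to -0.85 for phyhiplb, and the marcksl1 shift within 6.32 to 6.69. Pseudocounts of 0.1 and 2 moved no paralog shift beyond 1 SD. No pairing by replicate number was seen: same-numbered libraries correlated between -0.163 and 0.120, and 1 of 8 correlated best with its own number. The values were deviations from the mean of 4 libraries a group, so this check cannot exclude a pairing. The replicate block gave 4433 genes higher and 4383 lower. Depth limits phyhipla in myrAKT, at 15 to 35 reads a library.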

Other observations

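Opposite directions within a pair of a and b symbols, as in the marcksl1 pair, were also found in the 6 lists and among all tested pairs. In 8 of 29 such pairs within the lists, picked out after their values were seen, both genes passed the edgeR test in opposite directions. In 9 both passed in the same direction. The opposite pairs were 27.6% of the 29, against 20.3% of the 1137 pairs in the table, and the difference was not tested. With libraries scaled by dbh plus th 5 of the 29 were opposite (17.2%, against 12.0% of all 1137 pairs). With library totals 6 were opposite (20.7%, against 17.7%). Only alcama and alcamb were opposite both with TMM factors and when scaled by dbh plus th. The 29 pairs include ppp3ca and ppp3cb, which are different catalytic subunits of calcineurin. Alcama, an adhesion molecule of axons, was at 144 ± 50.2 CPM on average for myrAKT and 26.2 ± 10.01 CPM for MYCN (SD, n = 4 each), and its copy alcamb at 42.7 ± 18.8 CPM on average for myrAKT and 877 ± 253 CPM for MYCN. Their log2 fold changes were 2.46 and -4.36.

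Cntn1a, a contactin of axons, was at 5.36 ± 2.39 CPM on average for myrAKT and 21.2 ± 6.03 CPM for MYCN, and cntn1b at 29.2 ± 14.9 CPM on average for myrAKT and 5.73 ± 0.477 CPM for MYCN. Nmt1a, the other copy of the myristoyltransferase gene nmt1b, was at 99.2 ± 9.55 CPM on average for myrAKT and 183 ± 28.2 CPM for MYCN, a log2 fold change of -0.89 that was 0.64 with libraries scaled by dbh plus th.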
